A study of Mus musculus with 13 samples.

Results

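The genes described here are the ligands and receptors of axon guidance in the mouse: semaphorins and their plexin receptors, Slits and their Robo receptors, netrins and their Unc5 receptors, and ephrins and their Eph receptors. A gene was counted when it was typed as protein-coding, when its name began with one of these family names (Sema, Plxn, Slit, Robo, Ntn, Unc5, Efna, Efnb, Epha or Ephb, without the Slitrk genes), and when at least 1 peak listed under it lay within 100 kb of its transcription start. By this rule 56 genes were found, of 15377 protein-coding genes with a peak in that window. They comprised 18 semaphorins, 3 Slits, 3 netrins, 4 A-type and 3 B-type ephrins as ligands, and 7 plexins, 4 Robo, 4 Unc5, 7 A-type and 2 B-type Eph receptors. The 3 counted as netrins by name were Ntn1 and the netrin-like Ntng1 and Ntng2. The remaining gene, Unc50, met the rule by its spelling alone and is neither a ligand nor a receptor of guidance. RefSeq lists 70 protein-coding genes with such names, and the 14 that did not enter are Efna4, Epha2, Epha6, Ephb1, Ephb3, Ephb6, Ntn3, Ntn4, Ntn5, Plxnb1, Plxnb2, Sema3f, Sema6d and Unc5cl. In 7 of those 14 the gene body did hold peaks, 69 of FOXL2, 31 of H3K27ac and 0 of SMAD2/3, but the tables listed them under a nearer start of another gene.

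The measurements are ChIP-seq peak lists from LβT2 cells, an immortalised mouse line of pituitary gonadotropes, the cells that secrete the gonadotropins. All groups carried the same stable lentiviral transgene, FLAG-mFoxL2, and all were given doxycycline for 48 h to induce it, so each value comes from cells with added FOXL2, a forkhead transcription factor of gonadotropes and ovary. The vehicle group and the activin group differed in 1 h of exposure to vehicle or to 1 nM activin A, a TGF-β family ligand that acts through SMAD2 and SMAD3. Chromatin was precipitated with antibodies to SMAD2/3, to the FLAG tag (called FOXL2 here) and to histone H3 acetylated at lysine 27 (H3K27ac, found at active promoters and enhancers), with 2 libraries per treatment for each, and each sample was a pool of 3 plates. Before treatment all cells had recovered for 24 h and had spent 2 h in medium with 2% serum, and all were fixed with 1% formaldehyde. The tag marks the induced FOXL2, not the cells' own. The labels do not say whether the duplicates were separate cultures, so their spread may be technical. A Protein-A control is described too and was not analysed here. As a check of the cell label, 10 of the 11 gonadotrope markers with a known start (Cga, Lhb, Gnrhr and Nr5a1 among them) carried H3K27ac at the start in all 4 libraries, and Fshb had none. None of 5 markers of other pituitary lineages and none of 3 fibroblast markers did, while 4 of 6 neuronal markers (Snap25, Tubb3, Elavl3 and Map2) and 1 of 4 endothelial markers (Cdh5) did.

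Guidance cues steer growing axons by attraction or repulsion, and the same proteins act outside the nervous system in cell migration, cell adhesion and the growth of blood vessels. Secreted class 3 semaphorins signal through plexins with neuropilin as a co-receptor. Ephrins are tethered to the membrane and signal on contact with an Eph kinase on the neighbouring cell. SMAD proteins bind short DNA elements and usually need a partner factor, and FOXL2 is a known partner of SMAD3 at gonadotrope genes.

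To show what lies in front of guidance genes, promoter windows of 250 bases ending just before the start were taken from RefSeq (GRCm38.p6), which gave 62 windows for 48 of the 56 genes. Of these 62 windows 15 lay under H3K27ac in all 4 libraries, 3 met a FOXL2 peak and 0 met a SMAD2/3 peak. The same counts over all protein-coding windows were not made. Within 1 kb, 26 of the 62 and 9145 of all 21263 promoters had H3K27ac in all 4 libraries. By gene, FOXL2 lay within 1 kb of a start in any library for 21.4%, against 27.5% of protein-coding genes in the window. For SMAD2/3 these shares were 1.79% and 2.20%. The 3 windows that met FOXL2 are printed first (Efna1 at its upstream start, Epha5 and Unc50), followed by the acetylated windows of the 2 semaphorins with the most SMAD2/3 regions (Sema7a with 4 and Sema3a with 3), each 5′ to 3′ on the gene's own strand. Capitals mark the SMAD box CAGAC and the GC-type SMAD element GGCGC, on either strand (GTCTG and GCGCC on the other).
Efna1: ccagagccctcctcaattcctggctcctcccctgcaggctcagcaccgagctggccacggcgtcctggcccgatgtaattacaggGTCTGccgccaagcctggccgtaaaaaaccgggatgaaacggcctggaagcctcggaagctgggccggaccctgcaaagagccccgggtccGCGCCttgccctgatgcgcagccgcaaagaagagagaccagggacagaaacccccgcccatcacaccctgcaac
Epha5: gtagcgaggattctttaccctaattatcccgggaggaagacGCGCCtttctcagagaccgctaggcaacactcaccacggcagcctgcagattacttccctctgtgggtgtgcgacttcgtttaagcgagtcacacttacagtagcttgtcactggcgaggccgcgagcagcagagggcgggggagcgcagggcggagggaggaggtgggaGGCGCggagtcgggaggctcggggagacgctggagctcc
Unc50: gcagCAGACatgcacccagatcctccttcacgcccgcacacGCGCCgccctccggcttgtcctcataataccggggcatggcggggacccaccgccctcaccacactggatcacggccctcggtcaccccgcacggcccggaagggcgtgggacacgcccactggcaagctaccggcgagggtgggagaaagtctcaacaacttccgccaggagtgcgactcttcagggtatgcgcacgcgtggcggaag
Sema7a: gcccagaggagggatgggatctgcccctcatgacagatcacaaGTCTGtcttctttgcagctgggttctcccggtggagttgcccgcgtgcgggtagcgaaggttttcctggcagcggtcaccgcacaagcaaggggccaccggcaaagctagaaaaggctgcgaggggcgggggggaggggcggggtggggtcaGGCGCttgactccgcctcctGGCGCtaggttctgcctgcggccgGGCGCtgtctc
Sema3a: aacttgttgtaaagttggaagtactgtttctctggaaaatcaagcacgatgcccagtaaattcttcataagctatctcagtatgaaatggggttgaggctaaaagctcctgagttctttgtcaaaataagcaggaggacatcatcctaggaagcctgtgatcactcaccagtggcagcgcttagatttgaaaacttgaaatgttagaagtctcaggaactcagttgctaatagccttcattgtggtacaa
The windows lie at chr3:89280952-89281201 (minus strand) for Efna1, chr5:84417383-84417632 (minus) for Epha5, chr1:37429889-37430138 (plus) for Unc50, chr9:57939862-57940111 (plus) for Sema7a and chr5:13396534-13396783 (plus) for Sema3a. The Sema7a window held CAGAC on 1 occasion and GGCGC on 3, and the Sema3a window held neither. Among all 21263 windows of protein-coding genes 40.9% held CAGAC and 40.6% held GGCGC, and among the 62 guidance windows 51.6% and 58.1% did, so both motifs were common throughout. The forkhead motif TGTTTAC (both strands) was in 2.62% of all windows and in 0 of the 62. A match is a string of letters and was not tested as a binding site.

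These windows differed in base composition as well. The number of CpG dinucleotides was 16 in the printed Efna1 window, 20 in Epha5, 24 in Unc50 and 17 in Sema7a, but 2 in Sema3a. Over 300 bases around the start (250 before and 50 after), guidance promoters with H3K27ac within 1 kb in all 4 libraries held a median of 24.5 CpG (n = 26) and those with none 14.5 (n = 30). For all protein-coding promoters, with or without a peak nearby, the medians were 23.0 (n = 9145) and 4.0 (n = 10840). Guidance genes had entered only with a peak within 100 kb, so the sets are unlike, and the part of this filter was not tested. Unacetylated guidance promoters held more CpG than this unfiltered set of unacetylated promoters. Sema3a is the opposite case, a start poor in CpG inside one of the strongest acetylated domains near any guidance gene.

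The first comparison asks where SMAD2/3 peaks appeared near guidance genes after activin. Each vehicle library listed 1 SMAD2/3 peak near these genes, and the activin libraries listed 18 and 12, so the groups did not overlap. The ratio of the geometric means was 14.7 (log2 difference 3.88, pooled SD 0.292 on the log2 scale, n = 2 per group, exact two-sided permutation test p = 0.33, the smallest p that 2 against 2 libraries can give). The whole lists were longer too, with 7784 and 5970 peaks against 605 and 144. As a share of the list the guidance genes held 0.165% and 0.694% with vehicle, against 0.231% and 0.201% with activin, values that overlap (exact permutation p = 1.00). The difference of the mean shares was −0.214 percentage points, and 0.0508 once vehicle 2, the shortest list, was left out. The read depth behind each list is unknown.

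Overlapping peaks (by 1 bp or more) were joined across the 4 libraries of an antibody into regions. Activin-only regions had a peak in the 2 activin libraries and in no vehicle library, and vehicle-only regions the reverse. Near the guidance genes there were 20 SMAD2/3 regions in 11 genes. Activin-only regions numbered 8 (40%, Wilson 95% interval 21.9 to 61.3%), beside 54.1% of the 3923 SMAD2/3 regions near protein-coding genes. None was vehicle-only (background 0.0510%) and none had a peak in all 4 libraries (background 1.40%). A peak in both activin libraries was found in 10 of the 20 regions (50.0%, background 59.6%), in 7 genes. Of 56 genes these 7 are 12.5%, against 11.2% of all protein-coding genes in the window, and the 11 with any SMAD2/3 region are 19.6% against 17.0%. By these counts guidance genes held SMAD2/3 about as often as protein-coding genes at large.

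**Figure D1:**
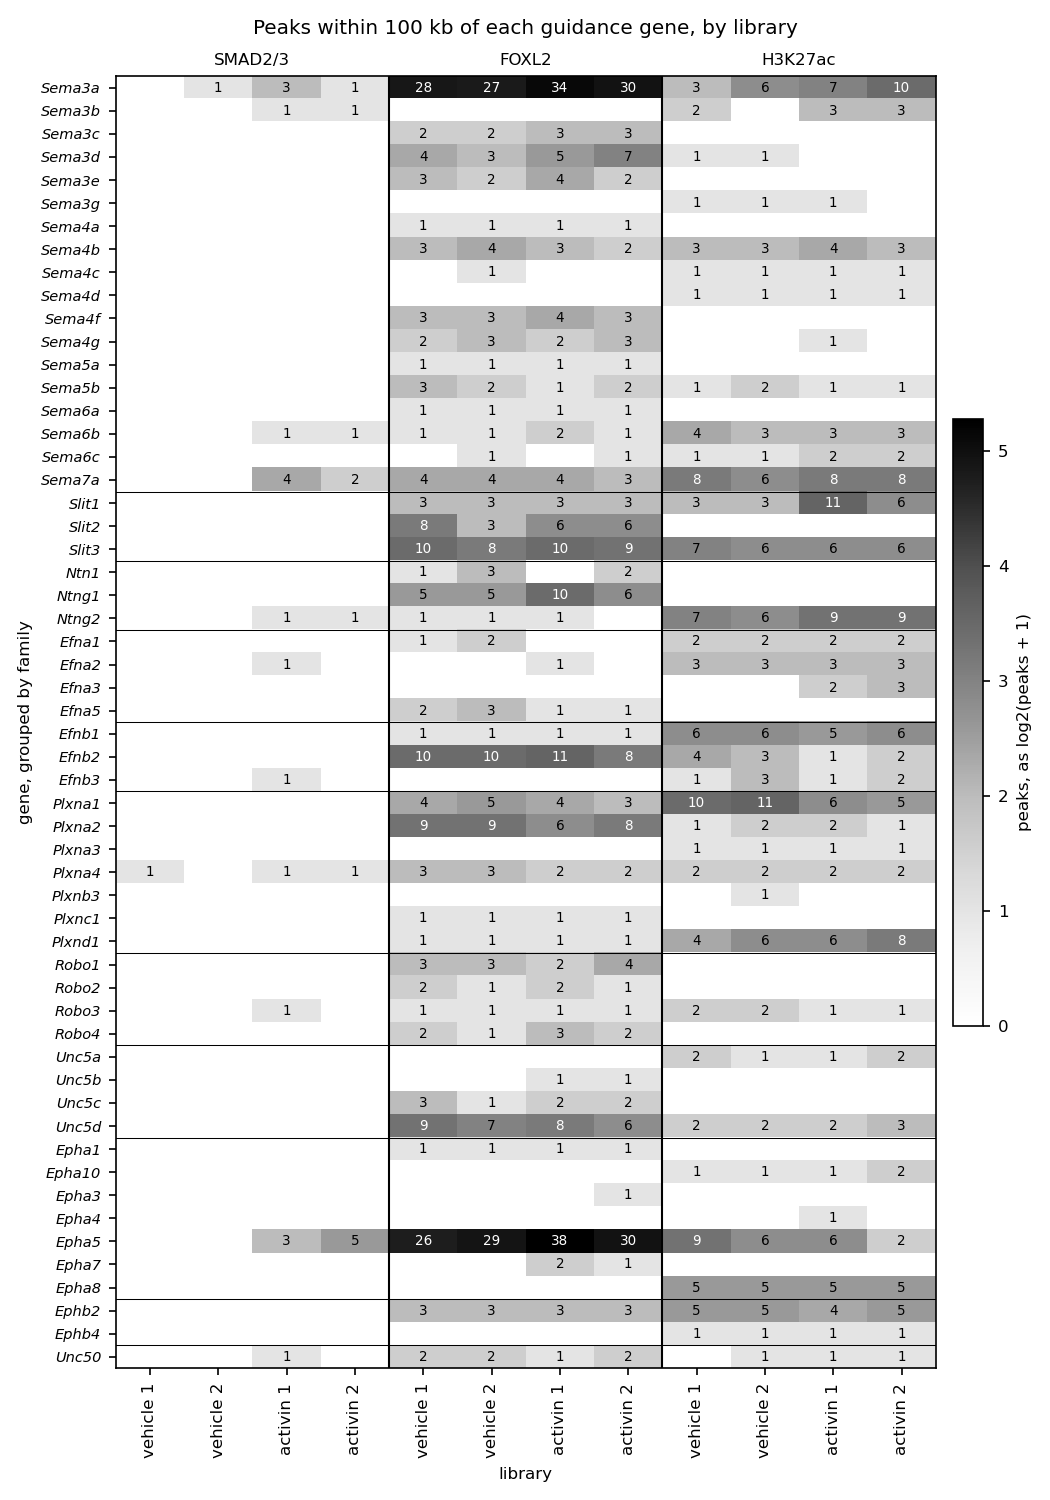
Number of peaks within 100 kb of the start of each of the 56 guidance genes (rows, grouped by family, ligands above receptors) in each of the 12 libraries (columns), with the shade on a log2 scale. SMAD2/3 peaks stand almost only in the activin columns, and Sema3a and Epha5 hold the most FOXL2 peaks in all 4 libraries.

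Among the ligands, Sema7a (ENSMUSG00000038264), a semaphorin anchored to the membrane by a lipid and also known from immune cells, had the strongest SMAD2/3 region of the set. This region (chr9:57966779-57967189) lies at 26.9 kb from the start, in a stretch the tables class as intergenic. No peak was listed there in either vehicle library, and the deposited fold enrichment was 17.5 in activin 1 and 12.1 in activin 2. Within their lists these peaks ranked at the 98.3 and 95.2 percentile by −log10 q (100 is the strongest peak). A second activin-only region lay in an intron of the gene, at 19.8 kb, with folds of 5.97 and 4.49. Activin 1 alone had peaks at 14.0 and 19.3 kb, with folds of 2.19 and 4.17.

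Sema3b (ENSMUSG00000057969), a secreted semaphorin, had its activin-only SMAD2/3 region at the promoter, at −1.17 kb (chr9:107607732-107607964). The folds there were 8.19 and 8.13, with percentiles of 70.9 and 69.8. No FOXL2 peak was listed under Sema3b in any library. It was the 1 region of the 10 that overlapped neither a FOXL2 nor an H3K27ac region (background 3.25%). Activin-only H3K27ac regions stood on either side of it, at −0.826 kb (chr9:107607310-107607697, folds 4.93 and 3.72) and at −1.61 kb (chr9:107607971-107609110, folds 3.71 and 4.23). In the vehicle libraries the only H3K27ac peaks listed for Sema3b were at −5.75 and −6.55 kb in vehicle 1, in the lowest ranks of that list (percentiles 5.86 and 3.08).

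Sema6b (ENSMUSG00000001227), a transmembrane semaphorin, had 1 activin-only region at −9.32 kb (chr17:56143068-56143289), with folds of 7.57 and 8.13. Ntng2, a netrin-like protein held to the membrane of neurons, had 1 at 2.27 kb (chr2:29245730-29245969), classed as an exon of another gene, with folds of 4.66 and 5.01. In both genes the region lay inside an H3K27ac region. Each met a FOXL2 peak in at least 1 library but no FOXL2 region with a peak in both activin libraries.

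Sema3a (ENSMUSG00000028883), the prototype of the repulsive secreted semaphorins, differed in that its main SMAD2/3 region already had a vehicle peak. This region, at −16.3 kb (chr5:13382946-13383603), had no peak in vehicle 1 and folds of 4.54 in vehicle 2, 5.87 in activin 1 and 5.78 in activin 2. Further peaks, at 38.1 kb (fold 7.91) and right at the deposited start at −0.0280 kb (fold 4.74), were listed in activin 1 alone. Sema3a was the single guidance gene with SMAD2/3 within 1 kb of a start (1.79%, background 2.20%).

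Among the receptors, Epha5 (ENSMUSG00000029245), an Eph kinase that binds A-type ephrins, had the most SMAD2/3 regions, 5, all in introns. The 3 activin-only regions were at 72.9 kb (folds 9.42 and 6.11), 71.4 kb (5.63 and 5.12) and −27 kb (5.25 and 4.92). The other 2, at 15.5 and 15.2 kb, were listed in activin 2 alone. All Epha5 distances given here run from the start the tables use, which lies 55.3 kb from the RefSeq start, inside the gene. From the RefSeq start (chr5:84417382) the region at −27 kb lies downstream. Those at 72.9 and 71.4 kb lie over 100 kb from it. Plxna4 (ENSMUSG00000029765), a receptor subunit for class 3 semaphorins, had 1 region in an intron at −34.2 kb (chr6:32259153-32259536). Its folds were 5.29 in vehicle 1, 8.16 in activin 1 and 6.68 in activin 2, and no peak was listed in vehicle 2. Sema3a and Plxna4, a ligand and a receptor of the same signalling class, were the 2 guidance genes with a SMAD2/3 peak in a vehicle library.

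**Figure D2:**
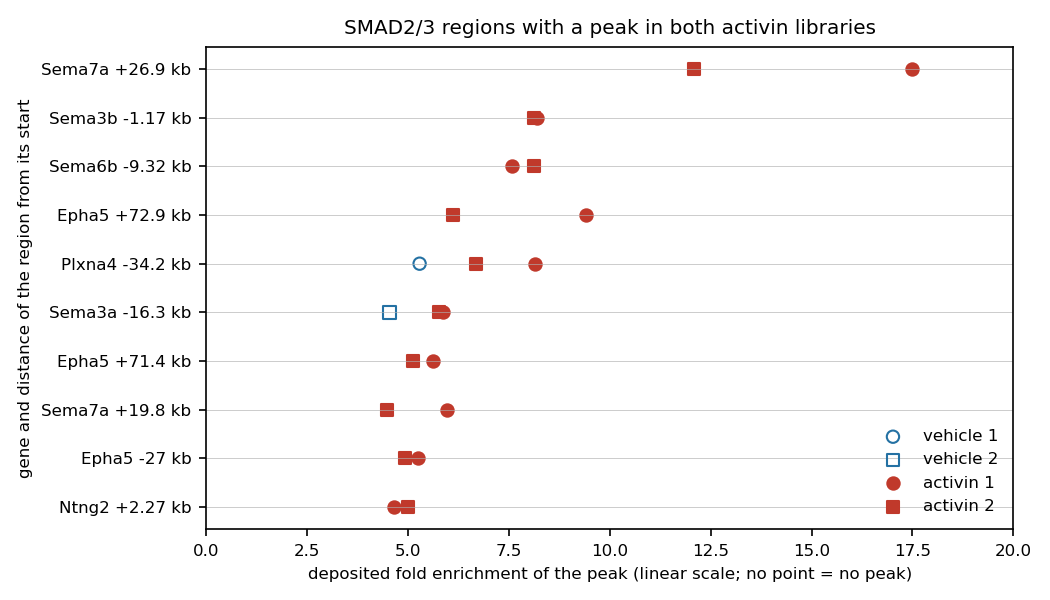
Deposited fold enrichment (linear scale) of the SMAD2/3 peak in each library, for the 10 regions listed in both activin libraries; a missing point means that no peak was listed. The Sema7a region at 26.9 kb stands highest (17.5 and 12.1), and open points mark the 2 vehicle peaks, of Plxna4 (5.29) and Sema3a (4.54).

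A single SMAD2/3 peak, in activin 1 alone, was listed for Efna2, Efnb3, Robo3 and Unc50, with folds of 4.22, 5.69, 3.25 and 3.46, and the Efnb3 and Unc50 peaks lay in introns of neighbouring genes. No Slit, Unc5 receptor or B-type Eph receptor had one. Altogether 45 of the 56 genes had no SMAD2/3 peak within 100 kb. Leaving out activin 2 would raise the activin-only count from 8 of 20 regions to 16 of 18, because 8 of the regions were listed in activin 1 alone. No background was computed for that rule. Leaving out Sema3a and Epha5, which hold 8 of the 20 regions, lowered the activin-only count to 5 of 12 (41.7%, background 54.1%).

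The second comparison asks what else lay at the 10 SMAD2/3 regions. A FOXL2 region present in both activin libraries overlapped 7 of the 10 (70.0%, interval 39.7 to 89.2%, background 79.9%), and an H3K27ac region overlapped 9 (90%, 59.6 to 98.2%, background 79.6%). The intervals include the background values in both cases. The 7 regions with FOXL2 belonged to Sema7a (2), Epha5 (3), Sema3a (1) and Plxna4 (1), and all 7 also lay in H3K27ac (70.0%, background 62.8%). Summit distances were taken over all SMAD2/3 peaks near guidance genes, 18 in activin 1 and 12 in activin 2, not over the 10 regions alone. Each ran to the closest FOXL2 summit of the equally numbered activin library. The median was 26.0 bp in activin 1 and 65.0 bp in activin 2, beside 45.0 and 43.0 bp for peaks near all protein-coding genes. At the strong Sema7a site the summits were 40 and 1 bp apart, and at the Epha5 site at −27 kb they were 6 and 4 bp apart. At Sema3b, in contrast, the nearest FOXL2 summit was 12527 and 12573 bp away. The libraries differed at Sema6b, with 19 bp in activin 1 and 10223 bp in activin 2, and at Ntng2, with 21 and 32175 bp.

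The third comparison concerns FOXL2 itself. With vehicle the libraries listed 168 and 163 FOXL2 peaks near guidance genes, against 187 and 166 with activin, groups that overlap (log2 difference 0.0904, pooled SD 0.0886, n = 2 per group, exact permutation p = 0.667). As a share of each list they were 0.194% in both vehicle libraries, against 0.191% and 0.177% with activin, without overlap (exact permutation p = 0.33). The peaks merged into 236 regions in 44 genes (78.6% of the 56, background 82.6%). Of these regions 109 had a peak in all 4 libraries (46.2%, background 47.0%), 10 were activin-only (4.24%, interval 2.32 to 7.62%, background 8.32%) and 11 vehicle-only (4.66%, 2.62 to 8.15%, background 3.36%). The background for activin-only regions lies above the interval. The regions are not independent of each other. Leaving out 1 library relaxes the rule. The activin-only count was then 26 of 232 regions without vehicle 1, 24 of 215 without activin 1 and 34 of 226 without activin 2. The vehicle-only count was 28 of 232 without vehicle 1 and 18 of 219 without vehicle 2. No background was computed under these relaxed rules. Without Sema3a and Epha5, with all libraries, 6 of 156 regions were activin-only (3.85%, interval 1.77 to 8.14%, background 8.32%).

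FOXL2 regions were spread very unevenly. Epha5 held 41 and Sema3a 39, together 33.9% of the 236, followed by Slit3 with 14, Efnb2 with 13 and Unc5d with 12, while the median guidance gene held 2.00. For Epha5 the vehicle libraries listed 26 and 29 peaks and the activin libraries 38 and 30. For Sema3a the vehicle counts were 28 and 27, beside 34 and 30 after activin. In both genes the activin counts were the higher ones, with no overlap between groups, as in 7 of the 44 guidance genes with a FOXL2 peak (15.9%, background 16.8%). The activin lists were longer, with 97701 and 94006 peaks against 86401 and 83834. As a share of the list Epha5 held 0.0301% and 0.0346% with vehicle against 0.0389% and 0.0319%, and Sema3a 0.0324% and 0.0322% against 0.0348% and 0.0319%, so by share the groups overlapped in both genes. Longer genes held more FOXL2 regions (Spearman rank correlation across genes 0.55 for the 56 guidance genes and 0.39 for 14365 protein-coding genes, with genes that are not independent replicates), and the median guidance gene was 57.1 kb long against 22.1 kb. The 12 genes with no FOXL2 peak listed under their names included Sema3b, Efna3, Efnb3, Plxna3, Ephb4, Unc5a, Epha8 and Epha10. By position, 2 of the 12, Unc5a and Sema4d, had a FOXL2 peak within 1 kb of a RefSeq start in 1 library.

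In Sema3a the strongest FOXL2 region was the one at −16.2 kb, under the SMAD2/3 region. It ranked at percentiles of 99.8 and 99.3 with vehicle against 99.9 and 99.8 with activin, with folds of 34.5, 27.2, 32.2 and 27.9. A second, at 38.1 kb, ranked at 99.6, 97.5, 99.9 and 99.8. The start that the tables use for Sema3a was covered in all 4 libraries, at −0.0820 kb, with percentiles of 26.7, 54.2, 57.6 and 47.2. The RefSeq start, 2.79 kb away, had FOXL2 within 1 kb in 2 libraries, and its printed window met no FOXL2 peak. Only 3 of the guidance genes (5.36%, background 9.95%), all of them semaphorins, had FOXL2 within 1 kb of a start, tabled or RefSeq, in all 4 libraries.

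In Epha5 the strongest FOXL2 regions were at 73.0 kb (percentiles 99.8, 96.2, 99.6 and 99.1) and −32.5 kb (98.2, 96.6, 98.7 and 98.4). Of its 21 regions with a peak in all 4 libraries, 9 ranked above both vehicle values in each activin library, 4 ranked below them and 8 overlapped. In Sema3a the same counts were 5, 6 and 10 of 21. A rank places a peak within its own list. The lists differ in length, so a higher rank alone shows no gain in binding.

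Over all 109 FOXL2 regions with 4 peaks, 25 ranked higher in both activin libraries (22.9%, interval 16.0 to 31.7%, background 28.9%) and 34 in both vehicle libraries (31.2%, 23.3 to 40.4%, background 28.5%). Epha5 and Sema3a supplied 9 and 5 of the 25. Without these genes 11 of 67 regions ranked higher with activin (16.4%, interval 9.42 to 27.1%), where the background lies above the interval, and 24 with vehicle (35.8%, 25.4 to 47.8%). Leaving out 1 library relaxes this comparison. The first share was then 41.6% without vehicle 1 (background 41.6%), 36.8% without vehicle 2 (background 42.0%) and 35.1% without activin 2 (background 37.4%). Where the SMAD2/3 regions lay, 1 of 7 FOXL2 regions ranked higher with activin (14.3%, interval 2.57 to 51.3%), while at SMAD2/3 regions near all protein-coding genes 52.1% did, and 2 of 7 ranked higher with vehicle (28.6%, 8.22 to 64.1%, background 20.1%). The 1 with activin was the Sema7a site at 26.9 kb, with percentiles of 98 and 98.6 for vehicle and 99.3 in each activin library. The other Sema7a site, at 19.8 kb, ranked lower with activin, at 53.8 and 56.6 against 28.3 and 11.3. The Plxna4 site ranked lower as well, with means of 68.9 and 56.9, and the 4 sites of Sema3a and Epha5 overlapped between groups, 3 of them near the top of all lists.

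Some FOXL2 regions stood far apart in rank between treatments, and 4 of them, picked after their values were seen, are given here. Efnb2, a transmembrane ephrin of arteries and neurons, had a region at 96.4 kb (chr8:8542612-8543385), close to the edge of the window. The start the tables use for Efnb2 lies 21.9 kb from the RefSeq start (chr8:8661242). From the RefSeq start the region is over 100 kb away. The region's folds were 12.2 and 10.9 with vehicle against 46.5 and 34.7 with activin, and its percentiles 76.1 and 67.5 against 98.2 and 96.0. No SMAD2/3 peak was listed at this region in any library. Epha5 had one at 84.2 kb with percentiles of 66.7 and 27.6 against 91.6 and 87.8, and Sema3a one at 12.9 kb with 36.5 and 45.5 against 81.8 and 81.7. In the other direction, the Sema3a region at −19.0 kb ranked at 48.8 and 66.5 with vehicle, against 15.5 and 8.77 with activin.

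**Figure D3:**
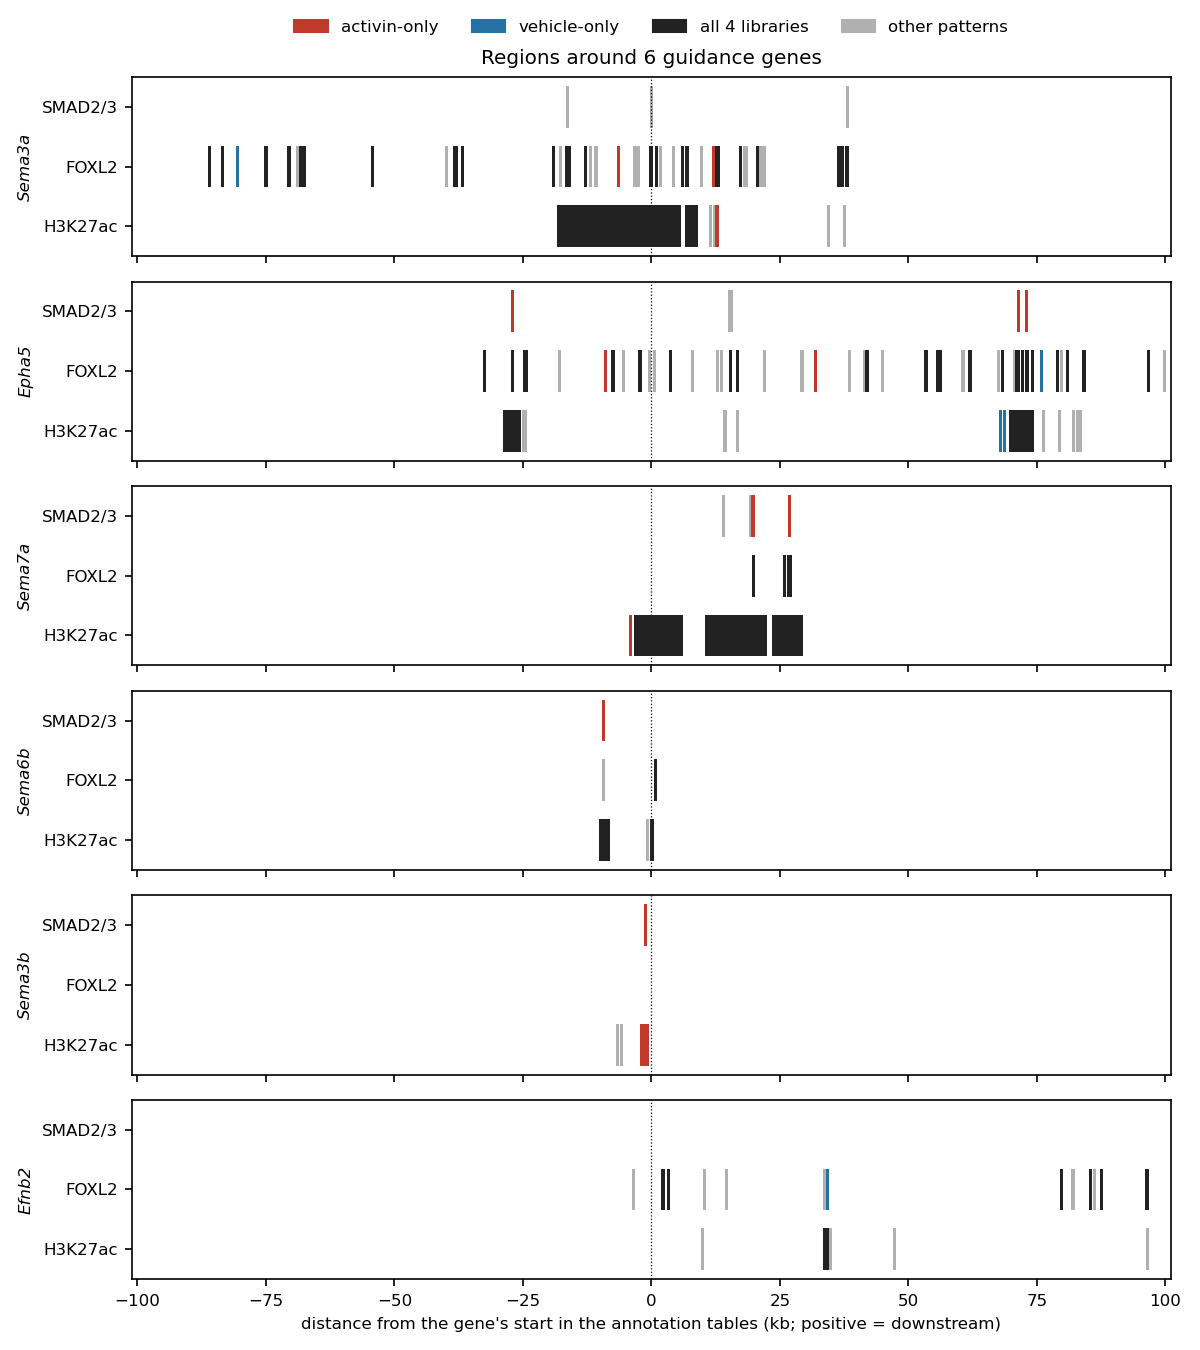
Regions of SMAD2/3, FOXL2 and H3K27ac around 6 guidance genes, by distance from the start used in the annotation tables (kb); red marks activin-only, blue vehicle-only, black regions with a peak in all 4 libraries and grey all other patterns, and regions under 0.6 kb are drawn at that width. Sema3a and Epha5 hold 39 and 41 FOXL2 regions, and at Sema3b the SMAD2/3 region and both neighbouring H3K27ac regions are red.

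The highest-ranked activin-only FOXL2 regions belonged to Slit3, a secreted ligand of Robo receptors, at −48.6 kb (folds 8.18 and 7.57), to Epha5 at −8.95 kb (8.13 and 8.67) and 31.9 kb (7.5 and 6.05), and to Unc5d, a netrin receptor, at 99.5 kb (9.94 and 6.76). The highest-ranked vehicle-only regions belonged to Slit3 at −58.6 kb (folds 6.26 and 6.02), Plxnd1, the receptor of Sema3e, at −36.5 kb (7.39 and 5.51), Plxna4 at 2.52 kb (4.09 and 5.15) and Plxna2 at −51.3 kb (4.66 and 2.58). Slit3 had 1 of each kind. The start the tables use for Slit3 lies 50.2 kb from the RefSeq start, chr11:35121456. By position the activin-only Slit3 region, chr11:35122850-35123127 in intron 1, lies just downstream of the RefSeq start. All 21 activin-only and vehicle-only FOXL2 regions were of middle or low rank, with mean percentiles of 56.0 or less, and none overlapped a SMAD2/3 region. The same share over all activin-only and vehicle-only regions was not computed. Among regions with a peak in all 4 libraries such overlap was rare too. It was found for 7 of 109 near guidance genes and 1581 of 26222 near protein-coding genes, counting SMAD2/3 regions of both activin libraries.

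Around the printed promoters, FOXL2 was weak. The Epha5 window met peaks in vehicle 1 (fold 4.83, percentile 19.2) and vehicle 2 (3.33 and 4.58) and in no activin library. The Efna1 window met vehicle-only peaks as well, with folds of 4.25 and 4.12 at percentiles of 7.12 and 10.7. At the Unc50 window the peaks were of middle rank in vehicle 1, vehicle 2 and activin 2 (percentiles 50.6, 39.2 and 39.9), with none in activin 1.

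The fourth comparison concerns H3K27ac. Each vehicle library listed 104 peaks near guidance genes, and the activin libraries listed 112 and 110, without overlap (log2 difference 0.0939, ratio 1.07, pooled SD 0.0130, n = 2 per group, exact permutation p = 0.33). As a share of the lists these were 0.253% and 0.257%, against 0.268% and 0.282% after activin (exact permutation p = 0.33). Among peaks with a −log10 q of 5 or more the counts were not separated by treatment, with a log2 difference of 0.0456 (exact permutation p = 1.00). The peaks merged into 146 regions in 37 genes (66.1%, background 75.2%). Of these 63 had a peak in all 4 libraries (43.2%, interval 35.4 to 51.3%, background 51.4%), 11 were activin-only (7.53%, 4.26 to 13.0%, background 5.33%) and 9 vehicle-only (6.16%, 3.28 to 11.3%, background 5.35%). Most of the latter 2 classes were weak: once a −log10 q of 5 or more was required, 57 regions were left, of which 1 was activin-only and 1 vehicle-only. The activin-only count was 17 of 137 regions without vehicle 1, 17 of 130 without activin 1 and 31 of 143 without activin 2. The vehicle-only count was 22 of 137 without vehicle 1 and 23 of 137 without vehicle 2. No background was computed for these counts or for the stricter threshold.

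Acetylation near guidance genes lay more often away from starts than near protein-coding genes in general. Only 11.0% of the 146 regions were classed as promoter (interval 6.86 to 17.1%, background 22.9%), and 33.6% lay within 10 kb of a start (background 54.9%). H3K27ac within 1 kb of a start in all 4 libraries was found for 25 of the 56 genes (44.6%, interval 32.4 to 57.6%, background 56.8%). The start used in the tables differs from RefSeq's start for many of these genes, by over 10 kb in 15 of the 46 with both and by up to 310 kb, in Ntng1. The part of these offsets in the promoter share was not tested.

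The Epha5 promoter printed above lies 55.3 kb from the start the tables use, and the H3K27ac domain over it, at percentiles of 96.7, 95.3, 94.0 and 92.7, was listed under a long non-coding RNA. Likewise the Ephb2 promoter, 142 kb from its tabled start, lay under H3K27ac at percentiles of 95.5, 94.6, 95.7 and 97.1 that was listed under C1qb. Of the 15 guidance windows acetylated in all 4 libraries, these 2 were listed under another gene only. Both therefore add to the acetylated guidance starts above, which were checked by position, but not to the 146 regions.

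The strongest H3K27ac regions present in all 4 libraries belonged to 5 genes. In Sema3a the peaks joined to a domain of 24216 bp (chr5:13379624-13403839) over the start and the −16.3 kb SMAD2/3 site, with percentiles of 98.2 and 98.7 with vehicle against 96.0 and 97.3 with activin. In Efna2, an A-type ephrin, the region at −1.87 kb had folds of 8.56 and 9.05 with vehicle against 13.1 and 11.8 with activin (percentiles 94.1, 96.6, 99.5 and 99.2). In Plxna1, a semaphorin receptor, the region at 10.0 kb ranked at 96.7, 97.1, 97.2 and 96.3, and in Sema4c, a transmembrane semaphorin, the region at 0.595 kb ranked at 94.1, 92.1, 96.0 and 95.5.

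Sema7a, the last of the 5, had 4 H3K27ac regions with a peak in all 4 libraries, and all 4 ranked higher in both activin libraries. The region that holds the strong SMAD2/3 site, at 26.5 kb, had percentiles of 80.0 and 78.9 with vehicle against 95.8 and 95.6 with activin (folds 4.50 and 4.13 against 6.23 and 6.40). The region at 1.45 kb ranked at 61.5 and 59.3 with vehicle, against 81.9 and 75.1 with activin. The other 2, at −1.15 and 16.5 kb, were at 94.0 or more in all libraries, and at 16.5 kb vehicle 2 and activin 1 both rounded to 95.1. A further, activin-only region lay at −4.04 kb (folds 2.94 and 2.91).

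Efna2 likewise had 3 regions, at −1.87, 0.685 and 11.5 kb, and all 3 ranked higher with activin. Across the set 20 of the 63 H3K27ac regions ranked higher in both activin libraries (31.7%, interval 21.6 to 44.0%, background 25.9%) and 13 in both vehicle libraries (20.6%, 12.5 to 32.2%, background 28.7%). Without activin 2 the activin share was 52.2% (background 38.8%), and with ranks by fold in place of −log10 q it was 23.8% (background 24.1%). Under SMAD2/3 regions it was 4 of 8 (50.0%, interval 21.5 to 78.5%, background 67.4%), namely 2 of Sema7a and 1 each of Sema6b and Epha5, and 2 of 8 ranked higher with vehicle (25.0%, 7.15 to 59.1%, background 14.0%). At Sema6b the region at −9.14 kb had percentiles of 54.4 and 51.8 with vehicle against 84.0 and 77.2 with activin.

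Epha5 had SMAD2/3 regions in 2 acetylated domains that went opposite ways in rank. At −27.2 kb the H3K27ac percentiles were 52.4 and 55.5 with vehicle against 89.3 and 83.5 with activin (folds 3.41 and 3.31 against 5.66 and 5.12). At 72.0 kb they were 90 and 91.0 with vehicle, against 87.1 and 79.1 with activin. Neither pair of groups overlapped. Both domains held activin-only SMAD2/3 regions and FOXL2 regions with a peak in all 4 libraries. Both domains lie downstream of the RefSeq start, the second by over 100 kb. Next to the second domain lay 2 vehicle-only H3K27ac regions, at 68.6 and 67.8 kb, and the first of them was the highest-ranked of its kind (folds 2.92 and 2.84).

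**Figure D4:**
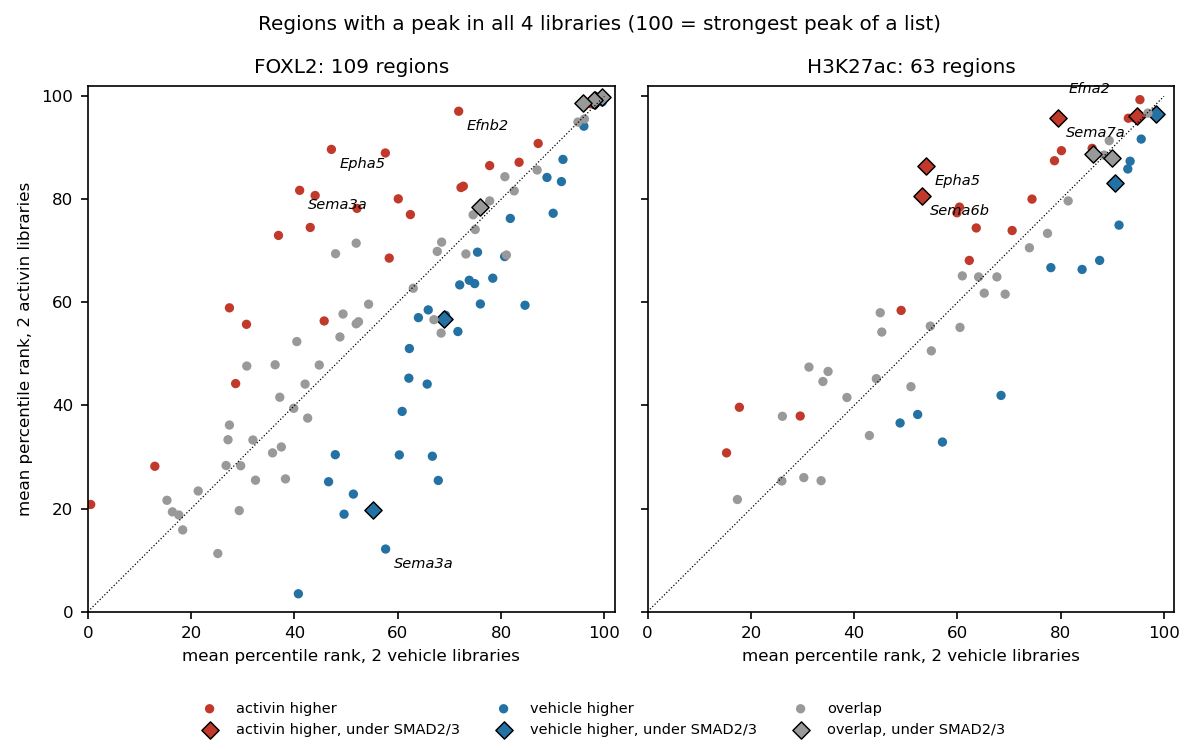
Mean percentile rank by −log10 q in the 2 vehicle libraries (x) and the 2 activin libraries (y) for the 109 FOXL2 and 63 H3K27ac regions with a peak in all 4 libraries; red ranked higher in both activin libraries, blue in both vehicle libraries, grey overlapped, and diamonds lie under a SMAD2/3 region of both activin libraries. Of the 8 H3K27ac diamonds 4 are red, with Sema7a, Epha5 and Sema6b far above the diagonal, and of the 7 FOXL2 diamonds 1 is.

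The other highest-ranked activin-only H3K27ac regions were the pair at Sema3b, the Sema7a region at −4.04 kb and a region of Ntng2 at 55.9 kb (folds 2.61 and 2.87). After Epha5, the highest-ranked vehicle-only regions belonged to Plxna1 at −51.2 kb (folds 3.16 and 2.81) and 4.63 kb (3.16 and 3.36) and to Ephb2, a receptor of B-type ephrins, at −6.94 kb (3.58 and 2.5). By gene, 7 of the 56 had an activin-only region (12.5%, background 8.15%) and 5 a vehicle-only one (8.93%, background 8.47%). Efna3 had H3K27ac with activin alone, 0 and 0 peaks against 2 and 3, all weak, and was picked for that pattern. The 19 genes with no H3K27ac peak included all of Sema3c, Sema3e, Robo1, Robo2, Unc5b, Unc5c, Ntn1 and Slit2 as listed, though the Slit2 promoter, 262 kb from its tabled start, met an H3K27ac peak in vehicle 1, activin 1 and activin 2.

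Ligands and receptors differed in how their H3K27ac peak counts stood between treatments, a split looked at after the values were seen. Near the 31 ligand genes the vehicle libraries listed 59 and 57 peaks and the activin libraries 72 and 71. Near the 24 receptor genes the vehicle counts were 45 and 46, and the activin counts 39 and 38. Neither pair overlapped, and the ratio of ligand to receptor peaks was 1.31 and 1.24 with vehicle against 1.85 and 1.87 with activin (log2 difference 0.543, exact permutation p = 0.33, n = 2 per group).

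Activin-only regions were 9 of the 86 near ligands (10.5%, interval 5.60 to 18.7%) and 2 of the 59 near receptors (3.39%, 0.935 to 11.5%), beside a background of 5.33%. Vehicle-only regions were 2 of 86 (2.33%, 0.640 to 8.09%) and 7 of 59 (11.9%, 5.87 to 22.5%), beside 5.35%. The background lies below the interval for activin-only regions of ligands and for vehicle-only regions of receptors. These regions sat in few genes, and the intervals treat them as independent. Plxna1 held 4 and Epha5 2 of the 7 vehicle-only regions of receptors. Ntng2 held 3, Sema3b 2 and Efna3 2 of the 9 activin-only regions of ligands, and Slit1 had 0 of either class. At a −log10 q of 5 or more only 1 region of each class was left over all guidance genes. In the peak counts, too, single genes carried much of the split. Slit1 held 3 peaks in each vehicle library and 11 and 6 in the activin libraries, covering 1.02 and 2.01 kb against 3.91 and 3.47 kb. Plxna1 held 10 and 11 against 6 and 5, covering 13.3 and 13.8 kb against 11.7 and 10.1 kb. The log2 difference was 0.280 without both genes and 0.218 for peaks at a −log10 q of 5 or more. Within 50 kb it was 0.363, and the receptor counts there, 34 and 39 with vehicle against 35 and 34, overlapped. Of those stronger peaks, ligands had 26 and 22 in the vehicle libraries against 29 and 24, which overlap, and receptors 20 in each against 20 and 18. In covered length the ligands' peaks spanned 95.9 and 93.6 kb in the vehicle libraries against 107 and 98 kb, and the receptors' 72.8 and 70.4 kb against 70.4 and 58.8 kb. A broad domain called as several peaks counts several times in the peak numbers but not in the length.

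**Figure D5:**
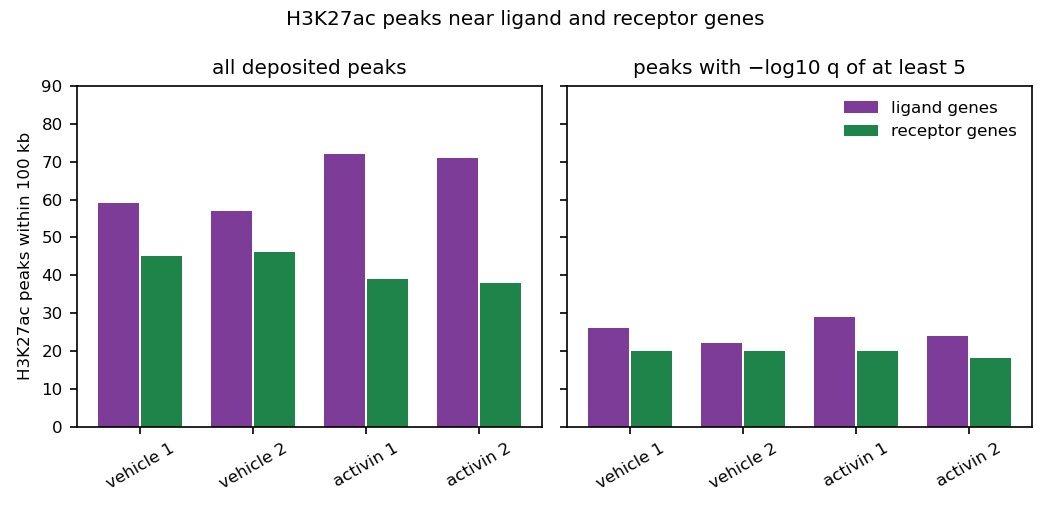
Number of H3K27ac peaks within 100 kb of the 31 ligand genes and the 24 receptor genes in each library (bars start at 0), for all deposited peaks and for peaks with −log10 q of at least 5. With all peaks the ligand bars are 59, 57, 72 and 71 and the receptor bars 45, 46, 39 and 38; with the stricter threshold the difference between treatments is small.

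By the peaks listed under their names, 9 of the 56 guidance genes had all 3 antibodies (16.1%, interval 8.69 to 27.8%, background 15.9%). FOXL2 without H3K27ac was listed for 19 genes (33.9%, 22.9 to 47.0%, background 24.8%), and H3K27ac without FOXL2 for 12 (21.4%, 12.7 to 33.8%, background 17.4%). All 3 intervals include the background. By position, Slit2 and Sema3e among the 19 had H3K27ac within 1 kb of a RefSeq start, in 4 libraries and in 1. By family, beside the 82.6% and 75.2% of all protein-coding genes with a listed FOXL2 or H3K27ac peak, FOXL2 was listed for all 3 Slits, all 4 Robo receptors and all 3 netrins, but H3K27ac was listed near 1 of the 4 Robo receptors (Robo3) and 1 of the 3 netrins (Ntng2). For the plexins there were 25 H3K27ac regions near 6 of 7 genes and 22 FOXL2 regions near 5.

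For the rest of the pathway, a list of 64 co-receptors, signalling enzymes and other cues was examined, and 55 had a peak in the window. SMAD2/3 regions listed in both activin libraries lay near 11 of the 55 (20.0%, background 11.2%), and near each of the 11 there was an activin-only region (background 10.4%), which 5 of the 56 guidance genes had (8.93%). The highest-ranked belonged to Rock2, a kinase that acts on the cytoskeleton, at −19.3 kb (folds 11.3 and 11.7), and to Srgap3, a Slit-Robo GTPase-activating protein, at −52.5 kb (9.11 and 6.79). Then followed the kinase Fer at 32.6 kb (5.97 and 7.17), the axonal adhesion protein Cntn2 at −15.5 kb (9.53 and 8.37), the exchange factor Kalrn at 77.4 kb (6.39 and 7.28) and the netrin and RGM receptor Neo1 at −29.9 kb (5.12 and 4.37). An activin-only FOXL2 region lay near 25 of the 55 (45.5%, background 21.6%) and a vehicle-only one near 9 (16.4%, background 10.3%). For the 56 guidance genes the counts were 8 (14.3%) and 11 (19.6%). A gene with more FOXL2 regions has more chances to hold one of either class. Gene length and regions per gene were not computed for the 55, so the lists cannot be compared on equal terms. For H3K27ac the pathway genes had activin-only regions near 6 (10.9%, background 8.15%) and vehicle-only regions near 9 (16.4%, background 8.47%).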

How the data were processed

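ChIP-seq was done in LβT2 cells for SMAD2/3, FLAG-FOXL2 and H3K27ac, with 2 vehicle and 2 activin libraries each. The labels' protocols give single-end sequencing of 50 bp. Bowtie2, MACS2, HOMER and the builds GRCm38 and mm10 are named in the submitters' processing notes, without roles or versions. The authors deposited 1 peak list and 1 annotation table per library, so peaks were called per library. Each deposited peak has a fold enrichment from the authors (a linear ratio whose background is not given in the sources used here), the authors' −log10 of p and q, and a deposited score derived from −log10 q. The tables come from annotatePeaks of HOMER, per the file headers, and give class, nearest start and distance. Peak centres and distances placed 1 start for each of 54 members; a peak nearer another start is listed under that gene. Reads per library are unknown and peak totals stand in for depth.

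From these, peaks under the family names with a distance of 100 kb or less were kept, and merged over the 4 libraries where they shared at least 1 bp. The backgrounds are the same shares over all regions, or genes, whose nearest start within 100 kb is protein-coding. Percentile ranks run within a list. For log2 counts and shares of a library's list, the two-sided exact permutation test ran over 6 labellings and cannot give a p under 0.33, so no comparison can reach 0.05. Intervals are Wilson intervals at 95%, cover counting error only, and treat neighbouring regions as independent. Merging, classes and overlaps were tested on simulated peaks. Python 3.11.15, numpy 2.4.6, pandas 2.3.3, scipy 1.17.1 and matplotlib 3.10.9 were used.

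Genes named are the members with SMAD2/3 in both activin libraries (a limit of 12 was not reached) or in a vehicle library, the 5 with the most FOXL2 regions, the 4 highest-ranked activin-only and vehicle-only regions of FOXL2 and of H3K27ac, the 5 with the highest-ranked H3K27ac region in all 4 libraries, up to 8 without an antibody's peak, and up to 6 other pathway genes by SMAD2/3 rank. Others were chosen after their values were seen. The members and lists were chosen with earlier results of these data known. Alternatives were −log10 q of at least 5, a window of 50 kb, lists of equal length, merging with at least 100 bp, rank by fold, coverage of at least 50% of a SMAD2/3 region, vehicle-library partners, each library left out and the replicate number as a block. Leaving out Sema3a and Epha5, equal list lengths for the ranks, and all alternatives for the split of ligands and receptors were chosen after seeing the data. Promoter sequences come from RefSeq (GRCm38.p6).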

Additional observations from a re-analysis of the deposited data

How the results depend on the processing

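The 16 results fixed at the start and the split of ligands and receptors were each recomputed under some of the alternatives. Leaving the replicate block aside, this gave 128 recomputed values over all results. Of 48 recomputed differences 46 kept their sign, and 35 of these were within 1.5 times of the reported value. Of 80 recomputed counts and shares 61 stayed within 1.5 times (counts) or within the Wilson interval of the reported value (shares). Without activin 1 the FOXL2 log2 difference fell from 0.0904 to 0.00452, and without activin 2 the FOXL2 share difference went from −0.0104 to −0.00304 percentage points. The difference in SMAD2/3 share turned from −0.214 to 0.0508 percentage points without vehicle 2 and was 0 with lists of equal length, and ranged from −0.478 to 0.0508 with 1 library left out. Without Sema3a and Epha5 the activin-only regions were 5 for SMAD2/3 and 6 for FOXL2. At a −log10 q of 5 or more, 1 activin-only and 1 vehicle-only H3K27ac region were left. With 1 library left out, activin-only regions ranged from 9 to 16 for SMAD2/3, from 13 to 34 for FOXL2 and from 15 to 31 for H3K27ac, and vehicle-only regions from 15 to 28 for FOXL2 and from 11 to 23 for H3K27ac. No background was computed for counts at the stricter threshold or with 1 library left out. The share ranked higher with activin ranged from 29.6 to 41.6% for FOXL2 and from 39.4 to 52.2% for H3K27ac, since each such rule asks for fewer libraries. Ranked by fold it was 23.8% for H3K27ac (background 24.1%), below the background that it exceeded by rank of −log10 q.

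With the replicate number as a replicate block, the differences equal the unblocked ones by construction, since each number occurs once per treatment, so the block tests nothing about direction. The SMAD2/3 log2 difference was 3.88 with an exact p of 0.5, the smallest that 2 pairs allow. Nothing in the labels says that equal numbers mark shared cultures. Over regions with 4 peaks, the deviations of equally numbered libraries had a correlation of 0.13 for FOXL2 and −0.03 for H3K27ac over all regions, and of 0.23 and −0.13 over those near guidance genes. Read depth, which sets how many weak peaks a list holds, is unknown.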
